A study of Mus musculus with 11 samples.

Results

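The genes described here are interferon response genes, that is, genes whose RNA is raised by interferon, together with the 2 chains of the type I interferon receptor. They were taken by symbol, as a list of 35 genes, and 33 of them had a probe set annotated to that gene alone. Isg15 had only a probe set shared with a second gene, and Ifi44 was not in the annotation table used. For each gene the brightest probe set on average (mean of the 11 arrays) was taken, as for the 18193 genes of the whole series.

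Cells that meet double-stranded RNA make type I interferon. Interferon binds the receptor chains Ifnar1 and Ifnar2, and the kinases on that receptor switch on a complex that holds Stat2 and Irf9, which enters the nucleus and binds the interferon-stimulated response element (ISRE) in front of antiviral genes. The series bears on this pathway because its skeletal stem cells were marked through it: pIpC, a synthetic double-stranded RNA, was given to switch on Cre recombinase from the interferon-inducible Mx1 promoter. Cre then removes a stop signal in front of the red protein Tomato. The mark is inherited, so in a Tomato+ cell or in a cell it descends from the promoter was active once.

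The series holds 11 Affymetrix mouse expression arrays of 6 sorted populations. P-SSCs (Mx1+Ocn-, 2 arrays) were periosteal CD45- CD31- Ter119- CD105+ CD140a+ cells of Mx1Cre; Rosa-Tomato; Osteocalcin-GFP mice that were Tomato+ and GFP-. BM-SSCs (Mx1+Nes+, 2 arrays) were marrow cells with the same surface markers from Mx1Cre; Rosa-Tomato; Nestin-GFP mice, positive for both colours. These Mx1Cre mice had been lethally irradiated when young, transplanted with wild-type marrow and later given pIpC, so both SSC populations share that history. Nes+ BMSCs (1 array) are titled as Nestin-GFP+ marrow cells with the same surface markers, irrespective of the Mx1 mark, although the source given for this array is periosteal tissue. CD51+ BMSCs (2 arrays) were marrow cells negative for CD45, CD31 and Ter119 and positive for CD51, the integrin alpha V chain, for which the methods add CD105 and CD140a and the labels do not. Osx+ cells (2 arrays) were osteolineage precursors marked by GFP under Osterix, with periosteal tissue as the source in the labels. CD45+ cells (2 arrays) were marrow hematopoietic cells. Whether the Nes+, CD51+, Osx+ and CD45+ cells came from mice given pIpC, and the time between pIpC and the Mx1+ sorts, are not stated in the sources used here. No array comes from an Mx1+ population without pIpC, so pIpC, irradiation, tissue and cell type cannot be told apart in any comparison. Mx1Cre is not specific for skeletal cells and also recombines in hematopoietic cells. RNA was made from cells of several mice of both sexes, and the methods describe the arrays as biological repeats. The p-values measure the spread between these few arrays.

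Array 2 of both SSC populations stood apart. The 2 P-SSC arrays correlated at a Pearson r of 0.456 over all probe sets and the BM-SSC arrays at 0.771, against 0.985 to 0.995 in the CD51+, Osx+ and CD45+ pairs. The median signal of 13 ribosomal protein genes was 6.90 on P-SSC array 2 and between 11.76 and 12.96 on the other 10 arrays (log2 units throughout). The deposited values of P-SSC array 2 had an interquartile range of 1.81 and those of BM-SSC array 2 of 1.98, and the other arrays had 2.44 to 3.56. P-SSC array 2 also went against its sort label, with Pdgfra, which encodes CD140a, at 4.41, against 11.28 on P-SSC array 1 and 3.62 and 3.42 on the CD45+ arrays. Pdgfra was 6.90 on BM-SSC array 2. The other sort genes followed the labels in part: Ptprc, which encodes CD45, was 10.23 and 10.17 in CD51+ BMSCs, which had been sorted as CD45-, 2.42 and 5.07 in Osx+ cells and 12.06 and 12.05 in CD45+ cells. Sp7, which encodes Osterix, was 8.93 and 8.58 in Osx+ cells, 8.15 and 7.11 in BM-SSCs and 7.71 on the Nes+ BMSC array. Itgav (CD51) was 10.10 and 10.27 in CD51+ BMSCs and 10.73 and 10.79 in Osx+ cells. Nes was 6.17 and 7.08 in BM-SSCs, 7.41 on the Nes+ BMSC array and 6.94 and 7.42 in P-SSCs. Pecam1 (CD31) was 6.34 and 4.80 in P-SSCs, sorted as CD31-, and 6.64 and 6.75 in CD45+ cells. Eng (CD105) was lowest on the CD45+ arrays, at 6.27 and 5.97. Results for the SSC populations are therefore given with all arrays and without array 2 of both, where each SSC population has 1 array that is assumed to vary like the other groups.

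The response element itself can be read in the promoters of these genes. In the RefSeq promoter windows of mouse build GRCm38.p6 (250 bases before to 50 bases after the transcript start that RefSeq gives for the window), 27 of the 35 genes had a window. The core searched was GAAA, any 2 bases, then GAAA, on either strand (TTTC, any 2 bases, TTTC on the other). It occurred in any window of 13 of the 27 genes and in 3.99% of all 27025 genes with a window. Matches lay in Bst2, Ddx60, Eif2ak2, Gbp2, Gbp3, Ifih1, Ifit1, Ifit3, Isg15, Oas1a, Oas3, Rsad2 and Stat2. Dhx58, Mx1, Mx2, Oas2, Parp14, Rtp4, Usp18 and Zbp1 had no window and were not searched. The windows below are those of the 3 measured genes with such a match whose signal differed most between P-SSCs and CD45+ cells, and of Rsad2, added after its values were seen as the gene furthest apart between CD51+ BMSCs and Osx+ cells. Capitals mark the core, and each window is written in the direction of its gene.
Bst2: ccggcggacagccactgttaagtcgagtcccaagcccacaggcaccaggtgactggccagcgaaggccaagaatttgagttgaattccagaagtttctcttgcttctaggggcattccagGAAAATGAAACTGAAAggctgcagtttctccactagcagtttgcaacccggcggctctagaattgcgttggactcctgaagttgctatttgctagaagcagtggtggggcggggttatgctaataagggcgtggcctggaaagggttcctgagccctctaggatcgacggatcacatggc
Ddx60: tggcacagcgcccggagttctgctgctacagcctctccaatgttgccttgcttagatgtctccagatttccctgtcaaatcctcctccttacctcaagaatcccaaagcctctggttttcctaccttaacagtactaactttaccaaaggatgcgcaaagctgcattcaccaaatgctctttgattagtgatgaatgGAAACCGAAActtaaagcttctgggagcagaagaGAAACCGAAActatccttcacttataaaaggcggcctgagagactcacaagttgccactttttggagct
Gbp3: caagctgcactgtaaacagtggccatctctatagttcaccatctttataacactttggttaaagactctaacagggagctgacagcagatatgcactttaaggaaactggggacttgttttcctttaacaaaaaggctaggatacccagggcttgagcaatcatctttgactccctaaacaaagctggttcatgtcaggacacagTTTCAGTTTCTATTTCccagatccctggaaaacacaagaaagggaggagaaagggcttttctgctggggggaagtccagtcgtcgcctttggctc
Rsad2: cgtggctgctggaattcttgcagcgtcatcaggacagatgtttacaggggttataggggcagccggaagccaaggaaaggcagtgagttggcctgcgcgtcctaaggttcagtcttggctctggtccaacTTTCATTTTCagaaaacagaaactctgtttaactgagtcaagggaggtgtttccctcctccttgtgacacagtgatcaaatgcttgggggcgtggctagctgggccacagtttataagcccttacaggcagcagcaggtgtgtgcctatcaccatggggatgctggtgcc
The Bst2 window lies at chr8:71537423-71537722 on the minus strand, and its 2 overlapping matches begin 130 and 124 bases before that start. Ddx60 (chr8:61927837-61928136, plus strand) has 2 separate copies of the same letters, 53 and 19 bases before the start. Gbp3 (chr3:142559794-142560093, plus strand) carries 2 overlapping matches on the opposite strand that begin 45 and 39 bases before it. The single Rsad2 match (chr12:26456403-26456702, minus strand) is also on the opposite strand, 120 bases before the start. These are matches of letters in a fixed window, not measured binding sites.

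Across the 11 arrays the 33 genes did not form a block that was highest in the Mx1+ cells. The median signal of the 33 genes was 6.88 and 5.42 on P-SSC arrays 1 and 2, 6.43 and 5.85 on the BM-SSC arrays, 6.22 in Nes+ BMSCs, 7.02 and 6.96 in CD51+ BMSCs, 5.43 and 5.06 in Osx+ cells, and 7.64 and 7.70 in CD45+ cells. P-SSCs had the highest mean for Eif2ak2 and Mx2, BM-SSCs for Ifit3, CD51+ BMSCs for 7 genes (Irf1, Ifih1, Ifit1, Ifit2, Gbp2, Rsad2 and Isg20) and CD45+ cells for 23 of the 33, with the single Nes+ array left out of this order. Osx+ cells had the lowest mean for 25. For 0 of 33 genes were all 4 Mx1+ arrays above all 6 CD51+, Osx+ and CD45+ arrays, a pattern that 5.9% of all genes showed.

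Both CD45+ arrays lay above the other 9 for 21 of the 33 genes, against 23.2% of all genes. Both Osx+ arrays lay below the other 9 for 13 of them (Cmpk2, Dhx58, Gbp3, Ifih1, Irf7, Oas1a, Oas3, Oasl2, Parp14, Rsad2, Rtp4, Usp18 and Zbp1), against 3.68% of all genes. All 4 Mx1+ arrays were above both Osx+ arrays for 18 of the genes, where 15.1% of all genes were, and below both CD45+ arrays for 23, where 32.2% of all genes were.

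**Figure D1:**
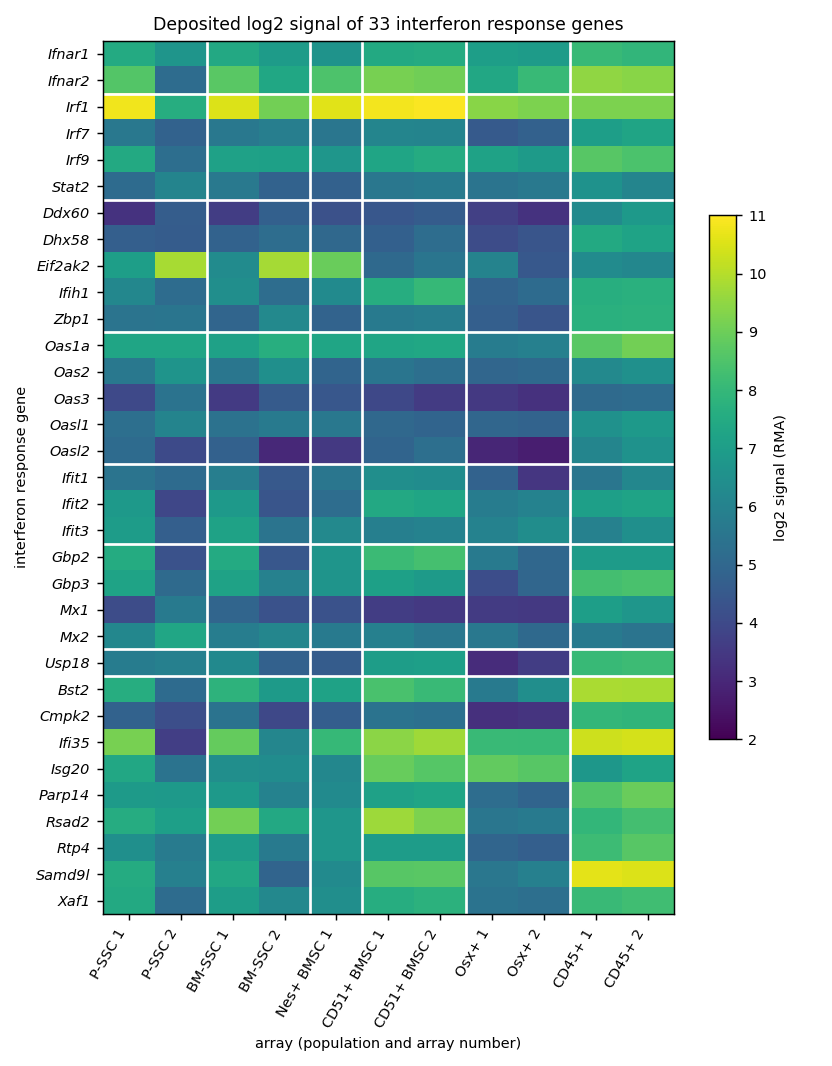
Deposited log2 signal (colour) of the 33 interferon response genes (rows, grouped by role from receptors at the top to other effectors at the bottom) on the 11 arrays (columns, grouped by population). Both CD45+ arrays are above all the others for 21 genes and both Osx+ arrays below all the others for 13, while arrays 1 and 2 of both SSC populations differ within each pair.

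The receptor chains were measured in every population. Ifnar1 was 7.51 and 6.71 in P-SSCs, 7.43 and 6.93 in BM-SSCs, 6.63 on the Nes+ BMSC array, 7.48 and 7.53 in CD51+ BMSCs, 7.06 and 6.93 in Osx+ cells, and 8.08 and 7.92 in CD45+ cells. Ifnar2 was 8.59 and 5.19 in P-SSCs, 8.69 and 7.37 in BM-SSCs, 8.48 on the Nes+ BMSC array, 9.16 and 9.04 in CD51+ BMSCs, 7.39 and 8.06 in Osx+ cells, and 9.49 and 9.40 in CD45+ cells. Both CD45+ arrays were highest for both chains, also on their other probe sets. The other, dimmer Ifnar1 probe set lay further apart, at 6.38 and 6.58 in CD45+ cells and 3.26 and 3.36 in Osx+ cells. It read 4.35 and 5.16 in P-SSCs, 4.35 and 3.98 in BM-SSCs, 3.73 on the Nes+ BMSC array and 4.48 and 4.35 in CD51+ BMSCs. On the chosen probe sets, with all arrays, no difference in either chain passed the test in any of the 12 comparisons. In the fit that leaves out array 2 of each SSC population, Ifnar1 was lower in P-SSCs (-0.49, adjusted p = 0.0459), BM-SSCs (-0.57, adjusted p = 0.0325), CD51+ BMSCs (-0.50, adjusted p = 0.0258) and Osx+ cells (-1.01, adjusted p = 0.000659) than in CD45+ cells by limma, and also passed in CD51+ BMSCs against Osx+ cells (0.51) and in BM-SSCs against Nes+ BMSCs (0.80). Ifnar2 then passed in P-SSCs (-0.86, adjusted p = 0.0308) and Osx+ cells (-1.71, adjusted p = 0.000428) against CD45+ cells and in CD51+ BMSCs against Osx+ cells (1.37, adjusted p = 0.00294).

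Among the transcription factors of the response, Irf7, which amplifies type I interferon production, was 5.60 and 4.84 in P-SSCs, 5.60 and 5.85 in BM-SSCs, 5.53 on the Nes+ BMSC array, 6.09 and 6.06 in CD51+ BMSCs, 4.55 and 4.79 in Osx+ cells, and 7.04 and 7.26 in CD45+ cells. Irf7 was thus highest on the CD45+ and lowest on the Osx+ arrays with no overlap. Irf1, an early factor shared by the type I and gamma interferon responses, was 10.81 and 7.59 in P-SSCs, 10.51 and 9.09 in BM-SSCs, 10.60 on the Nes+ BMSC array, 10.83 and 10.94 in CD51+ BMSCs, 9.40 and 9.21 in Osx+ cells, and 9.23 and 9.21 in CD45+ cells. Its array 1 values in both SSC populations were close to those of Nes+ and CD51+ BMSCs and above Osx+ and CD45+ cells, and its array 2 values were lower in both.
Stat2, a subunit of the complex that binds the response element, was 5.16 and 6.05 in P-SSCs, 5.63 and 4.84 in BM-SSCs, 4.79 on the Nes+ BMSC array, 5.57 and 5.68 in CD51+ BMSCs, 5.45 and 5.63 in Osx+ cells, and 6.59 and 6.10 in CD45+ cells. Irf9, which gives that complex its DNA contact, was 7.46 and 5.25 in P-SSCs, 7.14 and 7.10 in BM-SSCs, 6.73 on the Nes+ BMSC array, 7.29 and 7.54 in CD51+ BMSCs, 7.20 and 6.91 in Osx+ cells, and 8.66 and 8.45 in CD45+ cells. Both factors were highest on the CD45+ arrays, and with all arrays neither passed in any comparison. With array 2 of both SSC populations left out, both passed by limma as lower in P-SSCs, BM-SSCs, CD51+ BMSCs and Osx+ cells than in CD45+ cells, by 0.72 to 1.19 for Stat2 and by 1.10 to 1.5 for Irf9, and in no other comparison.

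The RNA sensors split into several patterns. Ifih1 (MDA5), the cytosolic receptor for long double-stranded RNA such as pIpC, was 6.16 and 5.17 in P-SSCs, 6.43 and 5.22 in BM-SSCs, 6.31 on the Nes+ BMSC array, 7.61 and 8.02 in CD51+ BMSCs, 4.87 and 5.14 in Osx+ cells, and 7.64 and 7.70 in CD45+ cells. Its CD51+ and CD45+ arrays were level with each other and above the rest. Dhx58 (LGP2), a helper of Ifih1, was 4.09 to 5.22 on the other 9 arrays, against 7.47 and 7.22 in CD45+ cells. Zbp1, which binds nucleic acids in the left-handed Z form, was 4.38 to 6.22 elsewhere, against 7.70 and 7.77 in CD45+ cells. Ddx60, an antiviral helicase, was 3.31 to 4.76 elsewhere, against 6.31 and 6.82 in CD45+ cells. These 3 genes were therefore set apart in CD45+ cells, and Dhx58 and Zbp1 were also lowest on both Osx+ arrays. The other Dhx58 probe sets were dim, at 3.15 and 3.04 and at 3.25 and 3.05 in CD45+ cells, and did not set these cells apart.
Eif2ak2 (PKR), the kinase that stops translation when it binds double-stranded RNA, was the exception, at 7.06 and 9.81 in P-SSCs, 6.33 and 9.78 in BM-SSCs, 8.95 on the Nes+ BMSC array, 5.09 and 5.49 in CD51+ BMSCs, 6.03 and 4.47 in Osx+ cells, and 6.33 and 6.18 in CD45+ cells. Its probe sets disagreed: the second one read 6.21 and 5.06 in P-SSCs, 6.47 and 4.29 in BM-SSCs and 6.50 and 6.47 in CD45+ cells, and the last was likewise lower on array 2 of both SSC populations. The high Eif2ak2 values thus belong to 1 of its 3 probe sets.

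Of the oligoadenylate synthetases, which activate RNase L to degrade RNA, Oas1a was 7.28 and 7.28 in P-SSCs, 7.16 and 7.63 in BM-SSCs, 7.28 on the Nes+ BMSC array, 7.28 and 7.36 in CD51+ BMSCs, 5.78 and 5.91 in Osx+ cells, and 8.70 and 9.10 in CD45+ cells. Oas1a thus lay at 3 levels, with the stromal populations between Osx+ and CD45+ cells, and both arrays of each SSC population lay in that middle range. Oasl2, a related protein, was 5.14 and 4.03 in P-SSCs, 4.80 and 3.04 in BM-SSCs, 3.49 on the Nes+ BMSC array, 4.90 and 5.27 in CD51+ BMSCs, 2.98 and 2.75 in Osx+ cells, and 6.09 and 6.60 in CD45+ cells. Oas2, Oas3 and Oasl1 were higher on array 2 than on array 1 in both SSC populations, and Oas2 and Oas3 reached the CD45+ level on P-SSC array 2 (6.67 for Oas2 against 6.23 and 6.52 in CD45+ cells, and 5.42 for Oas3 against 5.11 and 5.19). The values of these array 2 columns had narrow interquartile ranges (1.81 and 1.98), and whether the higher Oas values reflect that was not tested.

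The Ifit proteins, which bind viral RNA ends, are encoded close together on chromosome 19. They were not set apart in CD45+ cells. Ifit1 was 5.48 and 5.13 in P-SSCs, 5.86 and 4.50 in BM-SSCs, 5.53 on the Nes+ BMSC array, 6.45 and 6.37 in CD51+ BMSCs, 4.82 and 3.42 in Osx+ cells, and 5.53 and 6.15 in CD45+ cells. Ifit2 was 6.88 and 3.92 in P-SSCs, 6.86 and 4.38 in BM-SSCs, 5.22 on the Nes+ BMSC array, 7.43 and 7.29 in CD51+ BMSCs, 5.79 and 5.99 in Osx+ cells, and 7.09 and 7.22 in CD45+ cells. Ifit3 was 6.98 and 4.71 in P-SSCs, 7.20 and 5.48 in BM-SSCs, 6.22 on the Nes+ BMSC array, 5.87 and 5.98 in CD51+ BMSCs, 5.98 and 6.42 in Osx+ cells, and 5.96 and 6.49 in CD45+ cells. Array 1 of both SSC populations had the 2 highest Ifit3 values of the series and array 2 the 2 lowest, so the populations overlapped.

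Mx1, the GTPase gene whose promoter drives Cre in these mice, was not highest in the cells sorted on that promoter's past activity. It was 4.09 and 5.70 in P-SSCs, 4.92 and 4.28 in BM-SSCs, 4.28 on the Nes+ BMSC array, 3.64 and 3.48 in CD51+ BMSCs, 3.57 and 3.49 in Osx+ cells, and 7.03 and 6.72 in CD45+ cells. All 4 Mx1+ arrays were above the CD51+ and Osx+ arrays and below the CD45+ arrays. Mx2, its neighbour on chromosome 16, was 6.15 and 7.31 in P-SSCs, 5.82 and 6.13 in BM-SSCs, 5.68 on the Nes+ BMSC array, 5.92 and 5.56 in CD51+ BMSCs, 5.61 and 5.06 in Osx+ cells, and 5.66 and 5.46 in CD45+ cells, and passed in no comparison, with all arrays or without array 2 of both SSC populations. Gbp2, a guanylate-binding protein that acts on membranes of intracellular pathogens and is induced mainly by gamma interferon, was 7.55 and 4.26 in P-SSCs, 7.51 and 4.44 in BM-SSCs, 6.69 on the Nes+ BMSC array, 8.13 and 8.35 in CD51+ BMSCs, 5.68 and 5.01 in Osx+ cells, and 6.94 and 6.94 in CD45+ cells. Gbp2 was thus highest in CD51+ BMSCs, and its probe set may also read related Gbp genes. Gbp3 was 7.23 and 5.11 in P-SSCs, 7.20 and 5.94 in BM-SSCs, 6.66 on the Nes+ BMSC array, 7.11 and 6.92 in CD51+ BMSCs, 4.11 and 4.97 in Osx+ cells, and 8.32 and 8.42 in CD45+ cells, lowest on both Osx+ arrays and highest on both CD45+ arrays.

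Usp18 removes Isg15 from proteins and also brakes signalling at the receptor. It was 5.77 and 5.92 in P-SSCs, 6.26 and 4.79 in BM-SSCs, 4.62 on the Nes+ BMSC array, 7.02 and 7.09 in CD51+ BMSCs, 3.14 and 3.64 in Osx+ cells, and 8.05 and 8.17 in CD45+ cells. No 2 of these populations overlapped except the SSC populations with each other. The probe set that Isg15 shares with Gm9706 read 7.38 and 6.63 in P-SSCs, 7.53 and 6.92 in BM-SSCs, 7.04 on the Nes+ BMSC array, 7.92 and 7.60 in CD51+ BMSCs, 6.28 and 6.05 in Osx+ cells, and 6.82 and 7.28 in CD45+ cells, and how much of it is Isg15 was not tested.

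Rsad2 (viperin), which makes a nucleotide that ends viral RNA chains, was 7.58 and 7.08 in P-SSCs, 9.10 and 7.43 in BM-SSCs, 6.74 on the Nes+ BMSC array, 9.67 and 9.24 in CD51+ BMSCs, 5.54 and 5.70 in Osx+ cells, and 7.97 and 8.31 in CD45+ cells. CD51+ BMSCs were highest and Osx+ cells lowest, with no overlap. Cmpk2, a nucleotide kinase encoded beside Rsad2 on chromosome 12, was 4.82 and 4.16 in P-SSCs, 5.44 and 3.96 in BM-SSCs, 4.69 on the Nes+ BMSC array, 5.43 and 5.31 in CD51+ BMSCs, 3.25 and 3.34 in Osx+ cells, and 7.97 and 7.88 in CD45+ cells. These neighbours thus shared the low level in Osx+ cells and differed in which population was highest. Isg20, an RNA exonuclease, ran another way, at 7.41 and 5.44 in P-SSCs, 6.43 and 6.39 in BM-SSCs, 6.16 on the Nes+ BMSC array, 8.90 and 8.64 in CD51+ BMSCs, 8.85 and 8.67 in Osx+ cells, and 6.78 and 7.23 in CD45+ cells. Its 4 CD51+ and Osx+ arrays were above all others.
Bst2 (tetherin), which holds budding virus at the cell surface, was 7.60 and 5.16 in P-SSCs, 7.82 and 6.90 in BM-SSCs, 7.19 on the Nes+ BMSC array, 8.42 and 8.09 in CD51+ BMSCs, 5.70 and 6.45 in Osx+ cells, and 9.85 and 9.82 in CD45+ cells. Samd9l, an interferon-induced restrictor of growth, was 7.53 and 5.92 in P-SSCs, 7.39 and 4.89 in BM-SSCs, 6.29 on the Nes+ BMSC array, 8.65 and 8.69 in CD51+ BMSCs, 5.57 and 5.91 in Osx+ cells, and 10.62 and 10.51 in CD45+ cells. Ifi35 had the widest gap between the 2 P-SSC arrays, 9.14 and 3.66, against 10.32 and 10.42 in CD45+ cells, and its other probe sets showed much smaller gaps. Xaf1, Parp14 (a mono-ADP-ribosyltransferase) and Rtp4 were each highest on the CD45+ arrays, at 8.09 and 8.25, 8.55 and 8.94, and 8.18 and 8.65. Their other, dimmer probe sets were instead highest on P-SSC array 2. These read 4.53 for Xaf1 against 3.78 and 3.86 in CD45+ cells, 6.69 for Parp14 against 4.67 and 4.96, and 4.51 for Rtp4 against 3.15 and 3.21. The other Cmpk2 probe set was also highest there, at 6.14 against 5.92 and 5.52.

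**Figure D2:**
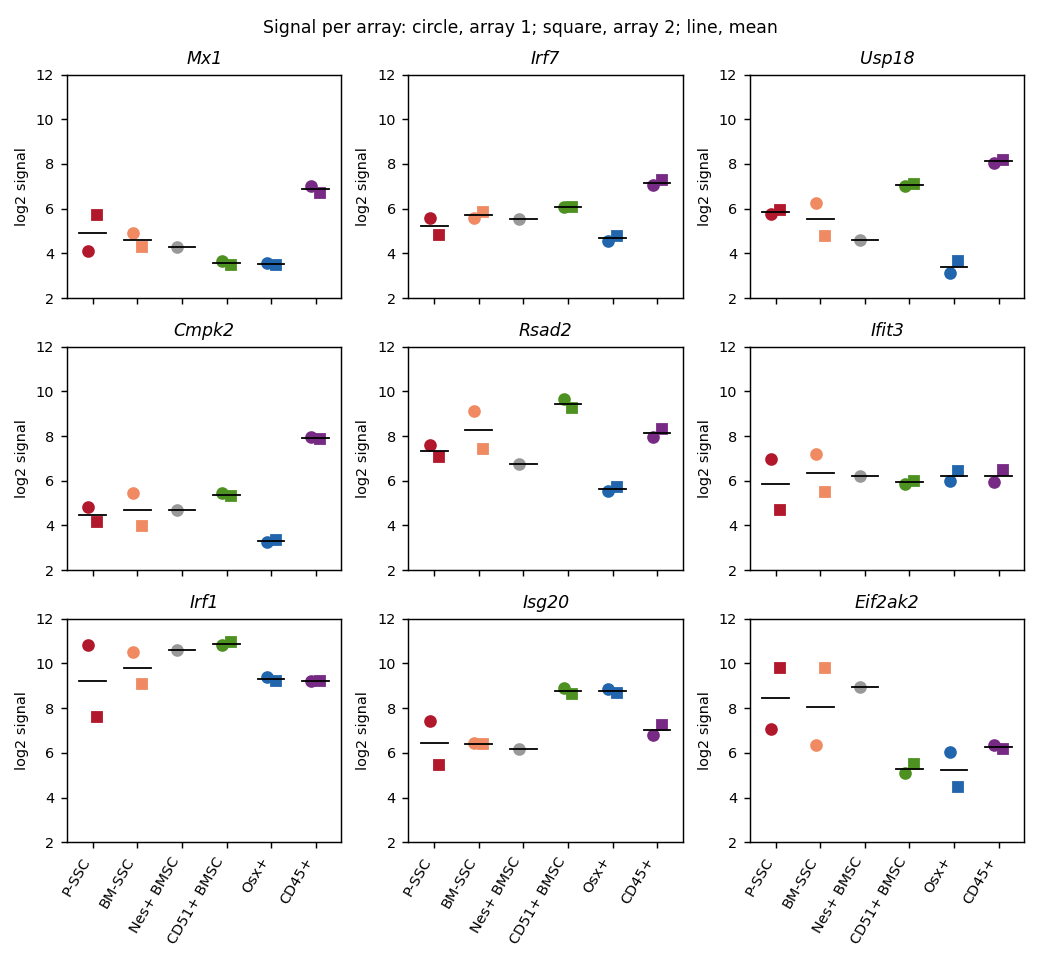
Log2 signal of 9 interferon response genes on each array (circle, array 1; square, array 2; line, mean), by population with the same vertical axis in all panels. Mx1, Irf7, Usp18 and Cmpk2 are highest on both CD45+ arrays, Rsad2 in CD51+ BMSCs, and for Ifit3, Irf1 and Eif2ak2 the 2 arrays of each SSC population lie apart.

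Against CD45+ cells the interferon response genes of the P-SSCs were mostly lower. In limma's test 12 of 33 fell and 0 rose, against 9.39% of all genes that fell and 3.09% that rose. At an unadjusted p under 0.05, 22 of the 33 and 7068 of all 18193 genes differed. The median difference of the 33 genes was -1.86, against 0.19 over all genes, and 31 of 33 were below 0. The 8 that fell most were Samd9l (difference -3.84, standard error 0.814, adjusted p = 0.0286), Bst2 (-3.45), Cmpk2 (-3.44), Dhx58 (-2.67), Ddx60 (-2.58), Rtp4 (-2.30), Usp18 (-2.27) and Zbp1 (-2.26). Cmpk2 and Dhx58 had the lowest adjusted p of these, 0.0079 and 0.00427. Ifih1, Irf7, Parp14 and Oas1a made up the rest, at -2 to -1.62. Mx1 differed by -1.98 (adjusted p = 0.057) and did not pass. Leaving out either CD45+ array left 0 genes past the threshold, as did a fit of only these 2 populations, while quantile normalization left 4, against 7.81% of all genes, and leaving out P-SSC array 1 gave 24, against 61.5%. Without array 2 of both SSC populations 25 passed in either direction, against 55.3% of all genes, with a median of -1.19. On that basis Bst2 fell by 2.23 and Mx1 by 2.78, which passed (adjusted p = 2.5e-05).

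BM-SSCs gave a similar account against the same 2 CD45+ arrays. In limma's test 10 of 33 fell and 0 rose, against 8.02% of all genes that fell and 2.94% that rose. At an unadjusted p under 0.05, 17 of the 33 and 5294 of all 18193 genes differed. The median difference was -1.51, against 0.08 over all genes. The 8 that fell most were Samd9l (-4.42, standard error 0.814, adjusted p = 0.0185), Cmpk2 (-3.23), Usp18 (-2.58), Ddx60 (-2.37), Parp14 (-2.34), Dhx58 (-2.33), Mx1 (-2.27, adjusted p = 0.0413) and Zbp1 (-2.16), and the others were Rtp4 and Oas1a. Leaving out either CD45+ array, or fitting only these 2 populations, left 0, and quantile normalization left 3, against 6.98% of all genes. Without array 2 of both SSC populations 26 passed, against 44.2% of all genes, and the median was -1.31.

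CD51+ BMSCs lay closer to CD45+ cells. By limma 6 of 33 genes fell and 0 rose, against 3.66% of all genes that fell and 4.25% that rose. At an unadjusted p under 0.05, 13 of the 33 and 3560 of all 18193 genes differed. The median was -1.06, against -0.07 over all genes. Those that fell were Mx1 (-3.32, standard error 0.532, adjusted p = 0.0143), Cmpk2 (-2.56), Dhx58 (-2.36), Zbp1 (-1.98), Oasl1 (-1.74) and Oas1a (-1.58). Irf1, Rsad2, Gbp2 and Isg20 had higher signal in CD51+ BMSCs, by 1.31 to 1.77, and did not pass. The count was 0 when any 1 of these 4 arrays was left out, 1 after quantile normalization, against 4.17% of all genes, and 27 in a fit of only these 2 populations, against 47.8%. Without array 2 of both SSC populations, which enter the shared spread, it was 26, against 43.2% of all genes.

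Osx+ cells differed most from CD45+ cells. Here 18 of 33 genes fell and 0 rose by limma, against 7.05% of all genes that fell and 4.91% that rose. At an unadjusted p under 0.05, 24 of the 33 and 4124 of all 18193 genes differed. The median difference was -2.48, against 0.02 over all genes. Samd9l (-4.82), Usp18 (-4.72, standard error 0.489, adjusted p = 0.00119), Cmpk2 (-4.63), Gbp3 (-3.83), Bst2 (-3.76), Parp14 (-3.68, adjusted p = 0.00112), Rtp4 (-3.58) and Oasl2 (-3.48) fell most. Mx1 fell by 3.35 and Irf7 by 2.48, while Ifnar1, Ifnar2, Stat2, Irf9 and the 3 Ifit genes did not pass. Isg20 was 1.76 higher and did not pass. Without Osx+ array 1 or 2, 7 and 8 genes passed, against 4.29% and 4.94% of all genes, and without CD45+ array 1 or 2, 7 and 5 passed, against 4.11% and 3.83%. Quantile normalization gave 8, against 8.1% of all genes. A fit of only these 2 populations gave 29, against 44.9% of all genes, as did leaving out array 2 of both SSC populations, against 48.8%.

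Set against Osx+ cells, the osteolineage control of the series, the Mx1+ populations had higher signal for most of these genes, and none passed with all arrays. For P-SSCs the median difference was 0.93, against 0.15 over all genes, and 26 of 33 were above 0. By limma 0 rose and 0 fell, where 0.055% of all genes rose and 1.02% fell. At an unadjusted p under 0.05, 13 of the 33 and 3703 of all 18193 genes differed. The 3 with the largest differences and no overlap were Eif2ak2 (3.19, adjusted p = 0.271), Usp18 (2.45, standard error 0.489, adjusted p = 0.0913) and Isg20 (-2.33, adjusted p = 0.16). For BM-SSCs the median was 0.82, against 0.04 over all genes, and 29 of 33 were above 0. Again 0 rose and 0 fell, where 0.044% of all genes rose and 0.781% fell. At an unadjusted p under 0.05, 11 of the 33 and 2026 of all 18193 genes differed. Eif2ak2 (2.80, adjusted p = 0.55), Rsad2 (2.65, standard error 0.547, adjusted p = 0.12) and Isg20 (-2.35, adjusted p = 0.22) led here.

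Leaving out array 2 of both SSC populations changed these counts most. For P-SSCs 19 of 33 genes then rose, against 13.1% of all genes, and 1 fell, against 17.7%, with a median of 1.07. For BM-SSCs 19 rose, against 8.95% of all genes, and 1 fell, against 9.71%, also with a median of 1.07. The gene that fell was Isg20 in both, by 1.34 for P-SSCs and 2.33 for BM-SSCs. On array 1 alone the largest P-SSC differences from Osx+ cells were Gbp3 (2.69, adjusted p = 0.00109), Usp18 (2.38), Oasl2 (2.28), Gbp2 (2.21) and Xaf1 (2.11), and the largest in BM-SSCs were Rsad2 (3.48, adjusted p = 0.000144), Usp18 (2.87), Gbp3 (2.66), Gbp2 (2.16) and Rtp4 (2.15). Mx1 was 1.40 higher in BM-SSCs on this basis (adjusted p = 0.00305) and 0.57 higher in P-SSCs, which did not pass (adjusted p = 0.0682). Eif2ak2 was 1.81 higher in P-SSCs (adjusted p = 0.0422) and 1.07 higher in BM-SSCs (adjusted p = 0.256), less than with all arrays. Leaving out P-SSC array 1 instead gave 14 of 33 genes for P-SSCs, against 52% of all genes. Leaving out BM-SSC array 1 or 2 gave 2 each for BM-SSCs, against 5.71% and 0.484% of all genes, and quantile normalization gave 1, against 0.423%.

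CD51+ BMSCs against Osx+ cells was the 1 comparison of 12 in which genes of the list rose with all arrays. By limma 4 of 33 rose and 0 fell, against 2.21% of all genes that rose and 0.984% that fell. At an unadjusted p under 0.05, 16 of the 33 and 1990 of all 18193 genes differed. The 4 that rose were Rsad2 (difference 3.84, standard error 0.547, adjusted p = 0.0132), Usp18 (3.66, adjusted p = 0.01), Ifih1 (2.81, adjusted p = 0.0341) and Parp14 (2.15, adjusted p = 0.0303). The median difference was 1.47, against -0.04 over all genes, and 32 of 33 genes were above 0. When any 1 of these 4 arrays was left out 0 passed, after quantile normalization 1, against 1.78% of all genes, and in a fit of only these 2 populations 21, against 23.9%, and without array 2 of both SSC populations 23 did, against 30.2% of all genes.

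Among the stromal populations no gene of the list passed by limma with all arrays. P-SSCs against CD51+ BMSCs gave a median of -0.85, against -0.03 over all genes, and 0.0055% of all genes rose and 0.835% fell. At an unadjusted p under 0.05, 9 of the 33 differed, and 4317 of all 18193 genes, a similar share, did. Ifi35 (-3.17, adjusted p = 0.231), Eif2ak2 (3.15, adjusted p = 0.219) and Isg20 (-2.35, adjusted p = 0.165) were furthest apart. The Ifi35 difference rested on P-SSC array 2, since without array 2 of both SSC populations it was -0.43 (adjusted p = 0.112), while Eif2ak2 was then 1.77 (adjusted p = 0.0418) and Isg20 -1.36 (adjusted p = 0.0061). BM-SSCs against CD51+ BMSCs gave -0.62, against -0.09 over all genes, and 0.0275% of all genes rose and 0.803% fell. At an unadjusted p under 0.05, 4 of the 33 differed, and 2323 of all 18193 genes, a similar share, did. Eif2ak2 (2.76, adjusted p = 0.448), Samd9l (-2.53, adjusted p = 0.32) and Isg20 (-2.37, adjusted p = 0.19) were furthest apart there, and without array 2 they were at 1.03 (adjusted p = 0.252), -1.28 (adjusted p = 0.00537) and -2.35 (adjusted p = 0.000913). With array 1 of each SSC population alone, 9 genes passed for P-SSCs, against 32.8% of all genes, and 8 for BM-SSCs, against 17.2%, with Ifih1, Isg20 and Samd9l lower and Ifit3 higher than in CD51+ BMSCs in both. Leaving out P-SSC array 1 instead gave 20 for P-SSCs, against 58.4% of all genes, and leaving out BM-SSC array 1 gave 4 for BM-SSCs, against 8.86%.

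P-SSCs and BM-SSCs were not told apart on these genes. The median difference was -0.12, against 0.04 over all genes, and limma called 0 of 33 genes, where 0% of all genes rose and 0% fell. At an unadjusted p under 0.05, 0 of the 33 and 371 of all 18193 genes differed. Mx2 (0.76, standard error 0.45, adjusted p = 0.98) and Dhx58 (-0.34, standard error 0.333, adjusted p = 0.98) were the only genes of the list without overlap. The share of all genes without overlap was not computed, so this is not read as a difference between the populations. On array 1 alone the 2 populations differed by a median of 0.301 in absolute value over the 33 genes, against 1.16 between the 2 P-SSC arrays and 1.22 between the 2 BM-SSC arrays. Without array 2 of both, Rsad2 passed (-1.52, adjusted p = 0.0422), where 2.46% of all genes passed. Leaving out P-SSC array 1 gave 5 genes, against 17% of all genes.

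BM-SSCs against the single Nes+ array, which holds cells with and without the Mx1 mark, gave a median of 0.12, against -0.02 over all genes. Limma called 0 of 33, with 0 at an unadjusted p under 0.05, where 0% of all genes rose and 0% fell. Rsad2 (1.53, adjusted p = 1), Oas2 (1.11, adjusted p = 1) and Usp18 (0.90, adjusted p = 1) were furthest apart without overlap. Without array 2 of both SSC populations 10 passed, against 30.5% of all genes, in a setting where each side has 1 array.

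The mean of the 2 Mx1+ populations was also set against the mean of the CD51+, Osx+ and CD45+ populations. By limma 1 of 33 genes fell, Isg20 (-1.76, standard error 0.383, adjusted p = 0.0398), and 0 rose, against 7.46% of all genes that fell and 1.26% that rose. The median was -0.49, against 0 over all genes. At an unadjusted p under 0.05, 8 of the 33 differed, and 8061 of all 18193 genes, a larger share, did. The Isg20 call was lost without either array of the CD51+, Osx+ or CD45+ populations and without BM-SSC array 2, whereas leaving out P-SSC array 1 gave 17 genes, against 67.4% of all genes, and leaving out BM-SSC array 1 gave 7, against 45.4%. Without array 2 of both SSC populations 12 passed, against 45.7% of all genes, with a median of -0.14. The comparisons here share arrays, so their medians are given side by side and not as independent results.

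**Figure D3:**
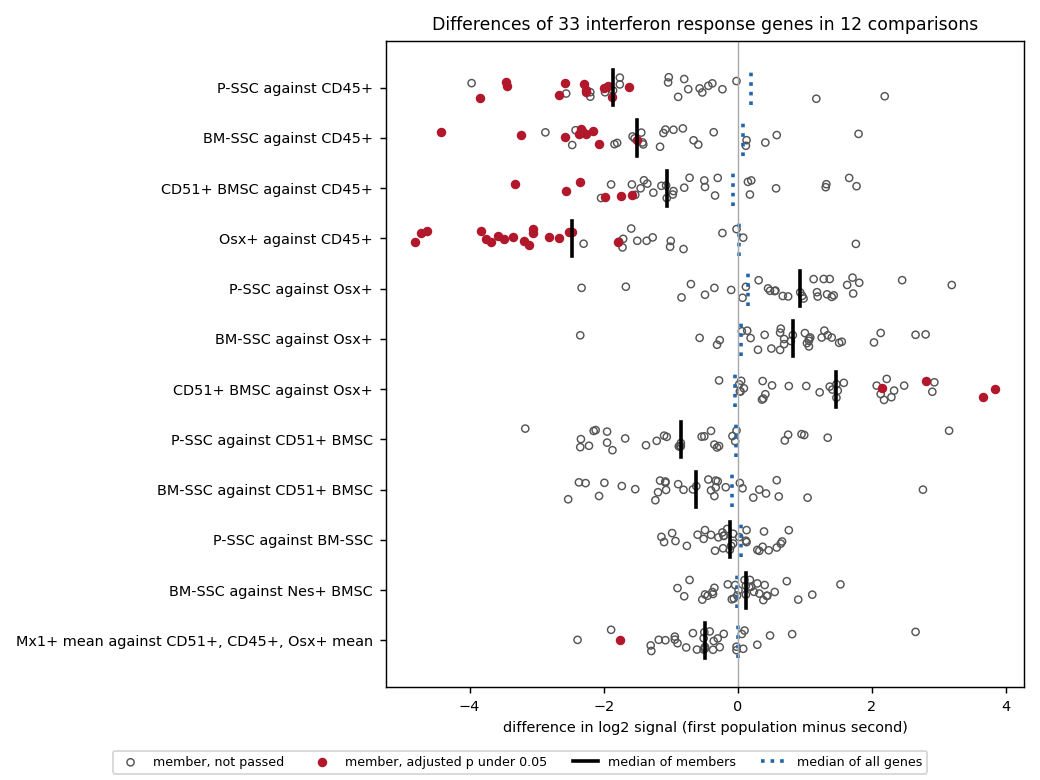
Differences in log2 signal (first population minus second) of the 33 genes in the 12 comparisons with all arrays; filled points passed an adjusted p of 0.05 in limma, the black bar is the median of the 33 genes and the dotted bar that of all 18193 genes. Medians lie at -1.86, -1.51, -1.06 and -2.48 against CD45+ cells and at 0.93, 0.82 and 1.47 against Osx+ cells.

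Leukocyte genes were likewise highest in CD45+ cells and next in CD51+ BMSCs. The median of 10 pan-leukocyte genes, all measured, was 6.16 and 5 in P-SSCs, 7.24 and 5.70 in BM-SSCs, 5.14 on the Nes+ BMSC array, 10.13 and 10.07 in CD51+ BMSCs, 3.61 and 5.25 in Osx+ cells, and 11.81 and 11.72 in CD45+ cells. Against CD45+ cells, the number of these 10 genes that fell was 9 for P-SSCs, 9 for BM-SSCs, 2 for CD51+ BMSCs and 10 for Osx+ cells, and 7 rose in CD51+ BMSCs against Osx+ cells. Of all genes, 9.39%, 8.02%, 3.66% and 7.05% fell and 2.21% rose in these comparisons. The median of 10 macrophage genes was 5.28 and 5.15 in P-SSCs, 6.16 and 5.74 in BM-SSCs, 5.07 on the Nes+ BMSC array, 8.22 and 7.74 in CD51+ BMSCs, 4.28 and 4.96 in Osx+ cells, and 9.20 and 9.20 in CD45+ cells. In CD51+ BMSCs against CD45+ cells, 3 of the 10 fell (Adgre1, Csf1r and Cd68) and 3 rose (Cd14, C1qa and C1qb), where 3.66% of all genes fell and 4.25% rose. Against Osx+ cells 7 of the 10 macrophage genes rose, where 2.21% of all genes did. The median of 6 genes of plasmacytoid dendritic cells, a main source of type I interferon, was 4.91 and 6.11 in P-SSCs, 4.63 and 5.78 in BM-SSCs, 5.33 on the Nes+ BMSC array, 6.79 and 6.38 in CD51+ BMSCs, 4.60 and 4.48 in Osx+ cells, and 9.56 and 9.13 in CD45+ cells. The part of such cells in the signal of the interferon response genes was not tested, and in sorted pools more cells of a type cannot be told apart from more RNA per cell.

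**Figure D4:**
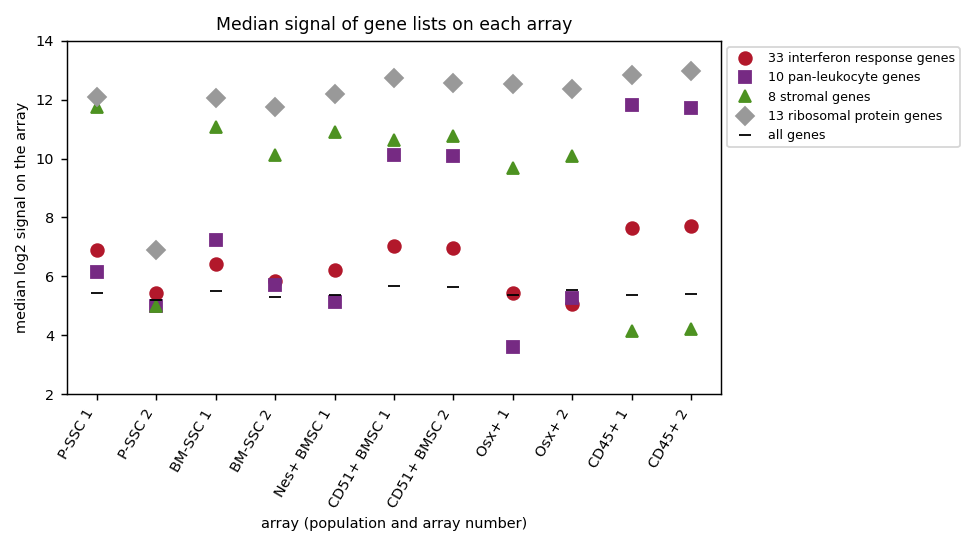
Median log2 signal per array of the 33 interferon response genes, 10 pan-leukocyte genes, 8 stromal genes, 13 ribosomal protein genes and all 18193 genes; values are to be compared along each series of symbols and not between them. Interferon response and pan-leukocyte medians are both highest in CD45+ cells, then in CD51+ BMSCs, and P-SSC array 2 is low for the ribosomal (6.90) and stromal genes.

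Other genes of the pathway were measured beside the list. Of all genes, 9.39% fell in P-SSCs, 8.02% in BM-SSCs, 3.66% in CD51+ BMSCs and 7.05% in Osx+ cells against CD45+ cells, and the counts with all arrays in these comparisons are to be read against those shares. Of 12 measured genes of receptor signalling, 1 fell in each of P-SSCs, BM-SSCs and CD51+ BMSCs and 2 fell in Osx+ cells, and none rose, so that in both SSC populations the share was near that of all genes. Ptpn6, a phosphatase of blood cells, fell in all 4 (-3.43, -3.87, -3.04 and -4.56) and Tyk2, a kinase on the receptor, in Osx+ cells (-1.85). In the fit without array 2 of both SSC populations 7, 8, 7 and 8 of the 12 fell and 1, 1, 3 and 3 rose in these comparisons, where 55.3%, 44.2%, 43.2% and 48.8% of all genes passed in either direction. Ifngr1, a chain of the gamma interferon receptor, was 8.04 and 6.14 in P-SSCs, 8.43 and 6.14 in BM-SSCs, 7.42 on the Nes+ BMSC array, 8.71 and 8.87 in CD51+ BMSCs, 7.27 and 7.54 in Osx+ cells, and 9.26 and 9.36 in CD45+ cells. Of 12 measured genes of double-stranded RNA sensing, Irf5 fell in P-SSCs (-2.48), BM-SSCs (-2.72) and CD51+ BMSCs (-2.50) against CD45+ cells, and Ikbke (-1.82) and Ddx58 (RIG-I, -1.71) fell in BM-SSCs. These 3 genes and Sting1 fell in Osx+ cells. With that array of both left out, 10 of the 12 fell in each SSC population against CD45+ cells and 1 rose. Tlr3, the endosomal receptor for double-stranded RNA, was 5.06 and 5.07 in P-SSCs, 5.49 and 4.34 in BM-SSCs, 4.97 on the Nes+ BMSC array, 4.90 and 5.08 in CD51+ BMSCs, 4.39 and 4.88 in Osx+ cells, and 4.08 and 3.77 in CD45+ cells, and the CD45+ arrays were the lowest of the series.

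Of 28 further measured interferon-stimulated genes, those that fell against CD45+ cells numbered 11 for P-SSCs, 7 for BM-SSCs, 7 for CD51+ BMSCs and 13 for Osx+ cells with all arrays, and none rose in these 4 comparisons. In the fit without array 2 of both, the median differences of the 28 genes in these comparisons were -1.19, -1.27, -1 and -3.08. In P-SSCs large falls with all arrays were in Trim12c (-4.20), Nmi (-4.04), Dtx3l (-4) and Slfn2 (-3.81), and without array 2 these were -4.47, -2.22, -3.13 and -4.18, so that the Nmi value rested in part on P-SSC array 2. Against Osx+ cells none of the 28 passed in either SSC population with all arrays, and 4 rose in CD51+ BMSCs, where 2.21% of all genes rose: Ifi204 (4.39), Trim30a (3.03), Slfn2 (2.92) and Trim12c (1.94). When array 2 of both was left out, 17 of the 28 rose in P-SSCs, against 13.1% of all genes, and 17 in BM-SSCs, against 8.95%, and none fell. Of 7 measured guanylate-binding and immunity-related GTPase genes of the gamma interferon response, Ifi47 fell in P-SSCs (-2.95), BM-SSCs (-3.18) and CD51+ BMSCs (-2.87) against CD45+ cells. Iigp1 ran the other way, at 9.01 and 5.92 in P-SSCs, 7.86 and 7.32 in BM-SSCs, 7.38 on the Nes+ BMSC array, 6.79 and 7.05 in CD51+ BMSCs, 6.19 and 4.77 in Osx+ cells, and 5.14 and 5.31 in CD45+ cells. It did not pass with all arrays, and without array 2 of both SSC populations it was higher than in CD45+ cells by 3.79 in P-SSCs (adjusted p = 0.000521) and by 2.63 in BM-SSCs (adjusted p = 0.00369).

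The antigen presentation genes that interferon raises followed the CD45+ pattern. Of 10 measured class I genes, 5 fell in P-SSCs, led by the immunoproteasome genes Psmb8 (-5.14), Psmb10 (-4.32) and Psmb9 (-3.78) with their activator Psme1 (-4.12), 3 fell in BM-SSCs, 1 in CD51+ BMSCs and 5 in Osx+ cells against CD45+ cells with all arrays. In the fit that leaves out array 2 of each SSC population, the median differences of the 10 genes were -1.64, -1.52, -1.14 and -3.32. The named P-SSC differences were then smaller, at -3.83 for Psmb8, -3.18 for Psmb10, -3.50 for Psmb9 and -2.22 for Psme1. B2m, the light chain of class I molecules, was 12.21 and 5.99 in P-SSCs, 12.39 and 12.20 in BM-SSCs, 12.32 on the Nes+ BMSC array, 12.61 and 12.55 in CD51+ BMSCs, 10.47 and 10.66 in Osx+ cells, and 13.03 and 13.09 in CD45+ cells, so the Osx+ arrays were the lowest apart from P-SSC array 2. Among 6 interferon-regulated chemokines, CD51+ BMSCs showed a rise of Ccl7 by 6.53 and of Ccl2 by 4.40 over CD45+ cells, and by 5.83 and 5.28 over Osx+ cells. Ccl5, made by T cells and macrophages, fell in P-SSCs (-4.54), BM-SSCs (-4.66) and CD51+ BMSCs (-4.56) against CD45+ cells. The other 5 had higher mean signal in both SSC populations than in CD45+ cells, and none of these passed with all arrays. Median differences of the 6 were 0.88 in P-SSCs and 1.39 in BM-SSCs, and 2.10 and 1.17 without array 2 of both. Cxcl10 was 7.76 and 5.25 in P-SSCs, 8.79 and 6.96 in BM-SSCs and 5.63 and 5.65 in CD45+ cells. It was also above CD45+ cells in the other populations, at 7.54 on the Nes+ BMSC array, 7.53 and 7.76 in CD51+ BMSCs and 6.68 and 6.29 in Osx+ cells. Of the 7 interferon genes measured, Ifng, a product of T and natural killer cells, was 2.28 to 3.25 on the other 9 arrays, against 4.90 and 5.13 in CD45+ cells, and Ifnb1 was 3.87 and 5.08 in P-SSCs, 3.96 and 5.32 in BM-SSCs and 3.45 to 4.67 on the other 7 arrays. The median of the 7 was 4 and 6.09 in P-SSCs and 3.99 and 5.11 in BM-SSCs. Whether these higher array 2 values reflect the narrow range of values on those arrays was not tested.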

How the data were processed

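RNA of sorted cells was measured on 11 arrays, and the authors deposited log2 values that they had made from the scanner files with RMA in Partek GS and R. The submitters' notes name limma without a version. Medians of the deposited columns were 4.43 to 4.94 and their interquartile ranges 1.81 to 3.56, so the columns did not share 1 distribution. The values were used as they stand.

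All arrays entered 1 model in limma 3.58.1 (R 4.3.3), which estimated the 6 population means and 1 spread per probe set, with 5 residual and 2.65 prior degrees of freedom. The 64 control probe sets were left out, p-values were adjusted by the Benjamini-Hochberg method over the other 45037 within each comparison, and a gene passed at an adjusted p under 0.05. Gene names came from the platform annotation, in which 34945 tested probe sets carry 1 symbol, 932 several and 9160 none. All 33 symbols measured are the same in RefSeq, and 14 of these genes had several probe sets. Promoter sequences are RefSeq's.

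The members and lists were chosen with earlier results of these data known. Genes were named by rule: up to 8 that passed per comparison and direction with the largest differences, or else the 3 largest without overlap between arrays, and a fixed set whose values are given on every array. Other genes were named after their values were seen. The number of arrays limits the precision. Alternatives were unadjusted p-values, only the groups compared, quantile normalization, median centring, a variance trend, no dim probe sets, any probe set of a gene, the array number as a block, and leaving arrays out.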

Additional observations from a re-analysis of the deposited data

How the results depend on the processing

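Directions of all genes that passed were the same in the alternatives run on the chosen probe sets, and counts depended strongly on the spread. Other probe sets of a gene were only counted, and their directions were not compared. Some of them ran differently, as given above for Parp14 and Rtp4. The other Parp14 probe set read 3.93 and 3.89 in CD51+ BMSCs and 4.45 and 3.74 in Osx+ cells. With array 2 of both SSC populations left out, there were 25, 26, 26 and 29 genes past the threshold in P-SSCs, BM-SSCs, CD51+ BMSCs and Osx+ cells against CD45+ cells, 20, 20 and 23 in P-SSCs, BM-SSCs and CD51+ BMSCs against Osx+ cells, 9 and 8 in P-SSCs and BM-SSCs against CD51+ BMSCs, 1 in P-SSCs against BM-SSCs, 10 between BM-SSCs and Nes+ BMSCs and 12 for the Mx1+ mean. A fit of only the groups compared gave 0 for P-SSCs and for BM-SSCs, 27 for CD51+ BMSCs and 29 for Osx+ cells against CD45+ cells, and 21 for CD51+ BMSCs against Osx+ cells. Quantile normalization gave 4, 3, 1 and 8 against CD45+ cells for P-SSCs, BM-SSCs, CD51+ BMSCs and Osx+ cells, 1 each for BM-SSCs and CD51+ BMSCs against Osx+ cells, and 0 for the Mx1+ mean. Unadjusted p-values gave 22, 17 and 13 for P-SSCs, BM-SSCs and CD51+ BMSCs against CD45+ cells, 13, 11 and 16 for P-SSCs, BM-SSCs and CD51+ BMSCs against Osx+ cells, 9 and 4 for P-SSCs and BM-SSCs against CD51+ BMSCs, and 8 for the Mx1+ mean. These are to be read against the counts over all genes given above for the same comparisons. For the Mx1+ mean, median centring gave 2, against 12.3% of all genes, and a variance trend 0, against 7.01%. Any probe set of the gene gave 2, a setting for which the share of all genes was not computed. The causes were not tested.

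Leaving out 1 array at a time gave 0 to 24 genes for P-SSCs, 0 to 11 for BM-SSCs, 0 for CD51+ BMSCs and 5 to 8 for Osx+ cells against CD45+ cells. It gave 0 to 14, 0 to 2 and 0 for P-SSCs, BM-SSCs and CD51+ BMSCs against Osx+ cells. P-SSCs and BM-SSCs against CD51+ BMSCs gave 0 to 20 and 0 to 4, P-SSCs against BM-SSCs 0 to 5, BM-SSCs against Nes+ BMSCs 0, and the Mx1+ mean 0 to 17. Where an arm keeps 1 array, it is assumed to vary like the other groups.

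The correlation of same-numbered arrays' deviations ran from -0.267 to 0.784 over 10 pairs of populations. It was above 0.1 in 1, P-SSCs with BM-SSCs (0.784), where array 2 of both stood apart. Whether same-numbered arrays share mice or a sort is not stated in the labels for any pair of populations. A low correlation of these deviations cannot decide it, since each population gives only 1 deviation per probe set. With the array number as a block, 11, 9, 5 and 18 genes passed in P-SSCs, BM-SSCs, CD51+ BMSCs and Osx+ cells against CD45+ cells. Of all genes, 12.6%, 10.5%, 8.01% and 12% passed there. In that setting 4 passed in CD51+ BMSCs against Osx+ cells, against 2.9% of all genes, and 1 for the Mx1+ mean, against 9.15%. Groups of 2 arrays are too small for an outlier test.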
